A study of Mus musculus with 23 samples.

Results

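The expression of 10 cytokine genes was followed in microglia, the resident macrophages of the brain: Il1a, Il1b, Il1rn, Il18, Tnf, Il6, Il10, Il12b, Il15 and Il16. They are the interleukin genes and the tumour necrosis factor (TNF) gene on a fixed list of symbols, and each symbol was matched to the name in the deposited tables, which gave 10 of 53090 genes. The list was drawn up with earlier results of these libraries known, but no measured value entered the rule. RNA was measured in 23 libraries from female C57BL/6 mice in 4 groups. There were 7 libraries from young mice, 5 from old mice, 3 from young repopulated mice and 8 from old repopulated mice. Repopulated mice had eaten AIN-76A chow with 1200 ppm of PLX5622, an inhibitor of the receptor CSF1R that microglia need to survive, and their microglia had then regrown. Per the labels' protocols, treatment controls ate the same chow without the drug, and the labels name no genetic change in any group. The labels used here state neither the ages nor how long treatment and regrowth lasted. The labels do not say whether each library came from its own mouse, so p-values measure the spread between libraries.

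Microglia make cytokines when receptors for danger or microbial signals activate NF-κB, AP-1 and related transcription factors. IL-1α and IL-1β act through the same receptor, which the antagonist encoded by Il1rn blocks. IL-1β and IL-18 are made as precursors that caspase-1 cuts within inflammasomes, TNF is shed from the membrane by the protease ADAM17, and IL-10 dampens cytokine production by macrophages. Several of these cytokines are also induced when brain tissue is dissociated warm, and the protocols here describe enzymatic dissociation at 37 °C.

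The stretches of 250 bases just before the gene starts of 4 members are shown because Il1a and Tnf varied together across libraries, as described below, while Il1b and Il6 did not vary with them to that degree. Sequences are from RefSeq (GRCm38.p6) and are written 5′ to 3′ in the direction of the gene. Capitals mark matches to the NF-κB consensus, to the AP-1 element TGANTCA or to the PU.1 core GAGGAA, each searched on both strands. The windows are chr2:129309973-129310222 (minus strand) for Il1a, chr17:35202008-35202257 (minus strand) for Tnf, chr2:129371140-129371389 (minus strand) for Il1b and chr5:30012864-30013113 (plus strand) for Il6.
Il1a: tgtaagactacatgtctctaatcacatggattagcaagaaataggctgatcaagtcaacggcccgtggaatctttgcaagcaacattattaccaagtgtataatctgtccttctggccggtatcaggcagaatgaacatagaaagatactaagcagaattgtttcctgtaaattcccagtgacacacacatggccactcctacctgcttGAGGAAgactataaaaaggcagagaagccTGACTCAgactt
Tnf: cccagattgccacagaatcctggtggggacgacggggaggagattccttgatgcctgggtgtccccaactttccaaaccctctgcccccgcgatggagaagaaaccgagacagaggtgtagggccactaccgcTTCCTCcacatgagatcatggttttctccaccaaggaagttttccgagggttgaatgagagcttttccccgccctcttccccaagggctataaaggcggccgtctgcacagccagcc
Il1b: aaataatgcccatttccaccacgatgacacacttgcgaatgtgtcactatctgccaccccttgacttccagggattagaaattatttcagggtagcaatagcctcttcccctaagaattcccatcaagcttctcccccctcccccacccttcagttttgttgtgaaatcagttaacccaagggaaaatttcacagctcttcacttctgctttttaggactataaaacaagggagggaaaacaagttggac
Il6: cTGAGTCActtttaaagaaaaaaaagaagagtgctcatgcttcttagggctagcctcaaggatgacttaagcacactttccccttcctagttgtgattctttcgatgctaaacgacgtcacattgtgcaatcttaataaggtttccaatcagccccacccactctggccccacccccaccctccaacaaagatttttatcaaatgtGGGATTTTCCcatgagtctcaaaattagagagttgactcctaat

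In Il1a the AP-1 letters began 12 bases and the PU.1 core 41 bases before the start. In Tnf a PU.1 core on the opposite strand began 117 bases before the start. In Il6 the NF-κB consensus began 44 bases before the start and the AP-1 letters lay at the far end of the window, and the Il1b window held none of the motifs. Of 32817 such windows of mouse genes, 3.9% held the NF-κB consensus, 6.75% the AP-1 letters and 23.3% the PU.1 core. A match describes letters and not a bound site. Windows were found for 8 of the 10 members.

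All 10 genes are annotated as protein coding in GENCODE M21 (build GRCm38). Il1a (ENSMUSG00000027399.1, chr2:129299610-129309972) and Il1b (ENSMUSG00000027398.13, chr2:129364570-129371139) lie on the minus strand of 1 chromosome, with Il1rn (ENSMUSG00000026981.15, chr2:24336853-24351494) on its plus strand. Il18 (ENSMUSG00000039217.13) spans chr9:50554827-50581840, Tnf (ENSMUSG00000024401.14) chr17:35199381-35202007, Il6 (ENSMUSG00000025746.11) chr5:30013114-30019981 and Il10 (ENSMUSG00000016529.5) chr1:131019845-131024974. Il12b (ENSMUSG00000004296.14) spans chr11:44400063-44414033, Il15 (ENSMUSG00000031712.10) chr8:82331632-82403222 and Il16 (ENSMUSG00000001741.12) chr7:83642825-83745726.

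Library totals ran from 43.66 to 58.19 M expected counts (M for 1e06), and no 2 libraries held identical values. The titles number the libraries from 1 to 24 without saying what the numbers mean. Numbers 1 to 11 hold young replicates 1 to 3, old replicates 1 and 2 and old repopulated replicates 1 to 5, and numbers 12 to 24 hold the rest, including every young repopulated library. Values are therefore also given within each run of numbers. The summed level of 11 microglial markers, among them P2ry12 and Tmem119, was 27000 to 32700 CPM (counts per M, scaled by edgeR's TMM) in young, 23900 to 27700 in young repopulated, 11700 to 27500 in old and 10900 to 30600 in old repopulated libraries. Markers of T and NK cells were near 0, with a sum of at most 3.45 CPM. In bulk RNA, fewer cells of a type and less RNA per cell cannot be told apart.

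Il1b, Il1a and Tnf made up most of the cytokine RNA. In TPM, a unit that corrects for gene length, Il1b averaged 813 over the 23 libraries, Il1a 746 and Tnf 483, which was 37.0%, 34.0% and 22% of the members' summed TPM. Il1rn (40.7 TPM), Il18 (39.6 TPM) and Il16 (38.4 TPM) came next, more than an order of magnitude lower. Il15 (14.0 TPM), Il6 (9.42 TPM), Il12b (7.43 TPM) and Il10 (4.18 TPM) were lowest. The order of neighbours was often not fixed: Il1b exceeded Il1a in 11 of 23 libraries on the TPM scale, and Il18 exceeded Il1rn in 17 of 23. Il1a exceeded Tnf in 22 of 23 libraries.

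The order of mean TPM also differed between groups. Il1a led in young libraries (931 ± 209 TPM, SD, n = 7, against 768 ± 171 TPM for Il1b), and Il1b led in young repopulated, old and old repopulated libraries, but the ranges of the 2 genes overlapped in each group. Il1rn was in place 6 of 10 in young libraries (24.5 ± 5.1 TPM, SD, n = 7) and in place 4 in old repopulated ones (64.0 ± 70.6 TPM, SD, n = 8). Il10 was last in every group, at 1.17 ± 0.559 TPM (SD, n = 7) in young libraries and 8.07 ± 13.3 TPM (SD, n = 8) in old repopulated ones. The SD above the mean in the last group comes with 1 library at 40.2 TPM.

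**Figure D1:**
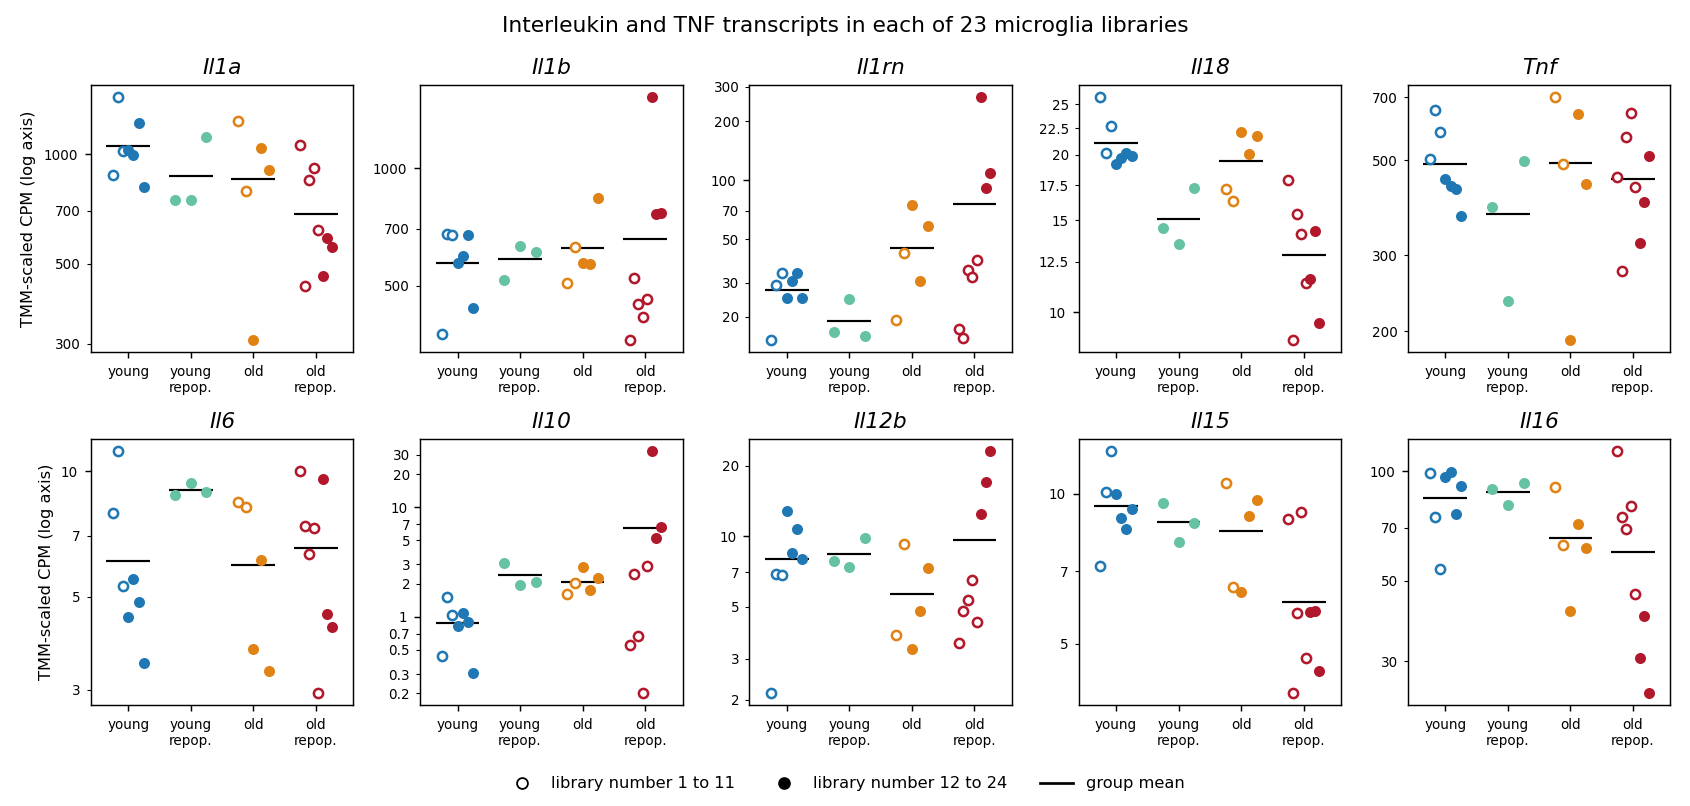
Expression of each of the 10 members (TMM-scaled CPM, log axis) in each of 23 libraries, by group. Open points are library numbers 1 to 11, filled points 12 to 24, and the bar is the group mean. All 8 old repopulated libraries lie below all 7 young ones for Il18, and the 3 filled old repopulated points lie above the 5 open ones for Il1b, Il1rn, Il10 and Il12b.

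Contrasts between groups were tested with edgeR's quasi-likelihood test on all 23 libraries and Benjamini-Hochberg adjustment over 18720 genes, and a gene was called at an adjusted p under 0.05. All 10 members passed the filter on low counts. In old versus young microglia 0 of 10 members were called by edgeR, where 2.83% of all genes were called. No member had an unadjusted p under 0.05 there, and DESeq2 (5.5% of all genes) and limma voom (12.6%) also called 0. In young repopulated versus young microglia edgeR called 0 members (1.34% of all genes), 1 had an unadjusted p under 0.05, DESeq2 called 0 (4.46% of all genes) and voom 2 (13.8%). For old repopulated versus old microglia edgeR called 0 members (0.278% of all genes), 2 had an unadjusted p under 0.05, and DESeq2 (2.08% of all genes) and voom (2.21%) called 1 each. All these percentages are of adjusted calls. The share of all genes at an unadjusted p under 0.05 was not counted, so the unadjusted member counts cannot be set beside one.

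Old repopulated versus young microglia was the comparison with called members. Il10 and Il1rn rose, and Il18 and Il15 fell. That was 4 of 10 members by edgeR, where 15.2% of all genes were called. Among all genes 9.29% were called higher and 5.92% lower. By DESeq2 5 members were called (19.2% of all genes) and by voom 6 (35.5%). Over the members the median log2 fold change was -0.01, beside -0.02 over all genes tested. This comparison combines age with repopulation, and the 2 cannot be told apart in it. It shares its libraries with the other contrasts.

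**Figure D2:**
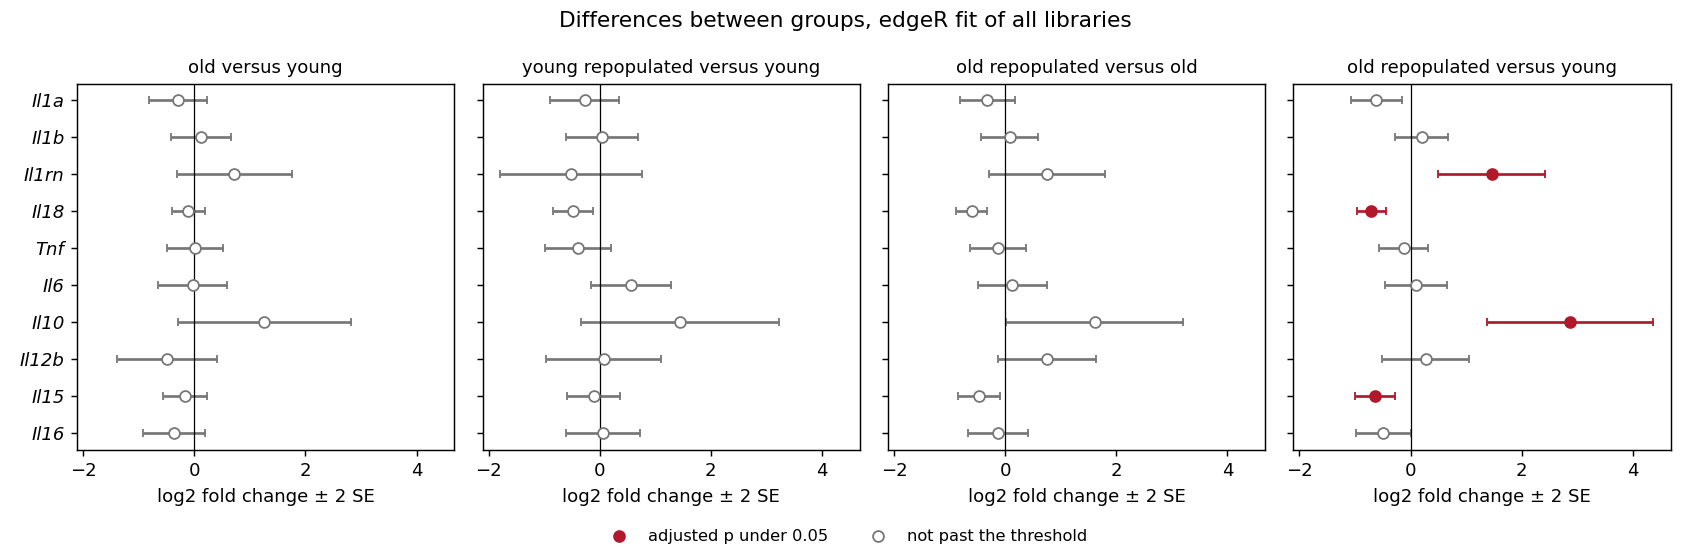
Log2 fold change of each member with 2 SE on either side, in 4 comparisons of groups (edgeR, 23 libraries). Filled red points had an adjusted p under 0.05, which holds for Il1rn, Il18, Il10 and Il15 in old repopulated versus young and for no member in the other 3 comparisons.

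Of the IL-1 agonists, Il1a encodes a cytokine that also acts as an alarm signal when cells die. It was at 811 to 1440 CPM in young libraries, with a median of 1020. It was at 750, 748 and 1120 CPM in young repopulated, at 1240, 791, 308, 1040 and 907 CPM in old, and at 434 to 1060 CPM (median 604) in old repopulated libraries. The groups overlapped, with old replicate 3 the lowest of all libraries. The log2 fold change of Il1a in old repopulated versus young was -0.62 ± 0.23 (SE), adjusted p = 0.0694 by edgeR, and the value was lower than the young median in 7 of 8 old repopulated libraries. By DESeq2, which called 19.2% of all genes, the change was -0.63 with an adjusted p of 0.0397, so the call rested on the tool. In old versus young the log2 fold change was -0.30 ± 0.26.

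Il1b encodes the inflammasome-dependent agonist. It was at 376 to 678 CPM (median 596) in young libraries, at 516, 634 and 611 CPM in young repopulated, at 509, 627, 573, 567 and 840 CPM in old, and at 364 to 1520 CPM (median 494) in old repopulated libraries. The groups overlapped. Old replicate 5 and old repopulated replicates 6, 7 and 8, the latter at 1520, 764 and 770 CPM, were above every young library, and old repopulated replicates 1 to 5 reached at most 524 CPM. Between old and young libraries the log2 fold change was 0.12, with an interval of 2 SE from -0.42 to 0.66, and in old repopulated versus young it was 0.20, from -0.28 to 0.68.

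Il1rn encodes the receptor antagonist. In young libraries it was at 15.3 to 33.7 CPM, with a median of 29.1. It was at 16.7, 24.6 and 16 CPM in young repopulated and at 19.4, 42.3, 74.6, 30.5 and 58.6 CPM in old libraries. The old repopulated libraries were at 15.7 to 266 CPM, with a median of 37.0. Young and young repopulated libraries were uniformly low, and the old and old repopulated groups each spread from within the young range to well above it. Il1rn rose by 1.46 ± 0.48 (SE) on the log2 scale in old repopulated versus young microglia, 2.76-fold, adjusted p = 0.0413 by edgeR, with 6 of 8 libraries above the young median. Without old repopulated replicate 6 it was 0.82 ± 0.37 with an adjusted p of 0.162. The log2 difference of Il1rn between old repopulated and young repopulated libraries was 1.98 ± 0.69, adjusted p = 0.382, where 0% of all genes were called in either direction. In that comparison 0 members were called by edgeR and by DESeq2 (0.542% of all genes) and 3 by voom (17% of all genes). At an unadjusted p under 0.05 there were 2 members, and the share of all genes at that threshold was not counted.

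The balance of antagonist to agonists can be read as Il1rn in percent of the summed Il1a and Il1b TPM. This percentage was 1.17 to 1.82 (median 1.45) in young and 0.832 to 1.43 (median 1.12) in young repopulated libraries. It was 1.10 to 6.38 (median 2.30) in old and 1.14 to 10.0 (median 2.63) in old repopulated libraries. The agonists' RNA thus exceeded that of the antagonist by at least an order of magnitude in nearly every library. The percentage was chosen after the values of the members were seen and was not tested.

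Il18 encodes the other inflammasome-processed cytokine, which drives interferon-γ production. It varied least of the members in young libraries, at 19.2 to 25.8 CPM (median 20.2) in young libraries. It was at 14.5, 13.5 and 17.3 CPM in young repopulated, at 17.2, 16.3, 22.1, 20.1 and 21.7 CPM in old, and at 8.87 to 17.9 CPM (median 12.9) in old repopulated libraries. Every repopulated library of either age was below every young library, while old libraries overlapped with young ones. Among all genes, 1.26% had old repopulated libraries all below the young ones and 6.11% had young repopulated libraries all below them. Il18 fell by 0.71 ± 0.13 (SE) on the log2 scale in old repopulated versus young, 1.64-fold, adjusted p = 0.00146 by edgeR.

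The Il18 difference had the same sign in each repopulation contrast. The log2 fold change of Il18 in old repopulated versus old microglia was -0.60 ± 0.14 (SE), adjusted p = 0.0764 by edgeR, 0.00971 by DESeq2 and 0.0143 by voom. In young repopulated versus young it was -0.48 ± 0.18, adjusted p = 0.188 by edgeR. The interaction, here the repopulation effect on Il18 in old minus that in young animals, was -0.11 with an interval of 2 SE from -0.56 to 0.34. Between old and young libraries Il18 differed by -0.11 ± 0.15 on the log2 scale. For the interaction edgeR (0% of all genes), DESeq2 (0.287%) and voom (0.807%) called 0 members, and no member had an unadjusted p under 0.05.

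Tnf encodes the cytokine that acts on the receptors TNFR1 and TNFR2. It was at 371 to 655 CPM (median 453) in young libraries, at 390, 235 and 498 CPM in young repopulated, at 701, 491, 191, 640 and 441 CPM in old, and at 276 to 644 CPM (median 445) in old repopulated libraries. All groups overlapped, and old replicate 3 was the lowest library for Tnf as it was for Il1a. The log2 fold change was 0.01 in old versus young, with an interval of 2 SE from -0.50 to 0.51, and -0.12 in old repopulated versus young, from -0.57 to 0.33.

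Il6, whose product signals through the shared receptor chain gp130, was at 3.48 to 11.2 CPM (median 5.30) in young libraries. It was at 8.76, 9.35 and 8.90 CPM in young repopulated, at 8.44, 8.19, 3.76, 6.14 and 3.33 CPM in old, and at 2.94 to 10.0 CPM (median 6.83) in old repopulated libraries. The young repopulated libraries were within the young range, but all young libraries of numbers 12 to 15 were below them, at 3.48 to 5.53 CPM. The log2 fold change in young repopulated versus young was 0.56 ± 0.36 (SE), adjusted p = 0.505 by edgeR. Within numbers 12 to 24 it was 1.0 ± 0.29, adjusted p = 0.0503, and voom with sample weights on all libraries gave 0.82 with an adjusted p of 0.021.

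Il10 encodes the main anti-inflammatory cytokine of macrophages and had the fewest reads. Young libraries held 14 to 74 expected counts of it, or 0.307 to 1.51 CPM (median 0.902). It was at 3.10, 1.96 and 2.07 CPM in young repopulated and at 1.6, 2.01, 2.87, 1.75 and 2.24 CPM in old libraries. In old repopulated libraries it was at 0.551, 2.44, 0.663, 0.200, 2.88, 32.7, 5.17 and 6.55 CPM. Every old and every young repopulated library was above every young one, whereas the old repopulated group held both the lowest and the highest library of all. Among all genes, 1.43% had old libraries all above the young ones and 5.97% had young repopulated libraries all above them.

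Il10 rose by 2.87 ± 0.75 (SE) on the log2 scale in old repopulated versus young, 7.31-fold, adjusted p = 0.0136 by edgeR, with 5 of 8 libraries above every young one. Without old repopulated replicate 6 the log2 fold change was 1.59 ± 0.55 with an adjusted p of 0.0655. In old versus young the log2 fold change of Il10 was 1.26 ± 0.78, adjusted p = 0.48, and in young repopulated versus young it was 1.44 ± 0.89, adjusted p = 0.475, so neither passed the edgeR threshold in spite of the separate ranges. These SE rest on a spread of Il10 estimated over all 4 groups. The SD was 10.9 CPM in old repopulated libraries, which are in neither contrast. It was 0.406 CPM in young, 0.498 CPM in old and 0.628 CPM in young repopulated libraries. A fit of only the groups compared did not call Il10 in either contrast.

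Il12b encodes the p40 chain shared by IL-12 and IL-23. It was at 2.13 to 12.8 CPM (median 8.00) in young, at 7.86, 7.40 and 9.80 CPM in young repopulated, at 3.77, 9.22, 3.31, 4.79 and 7.32 CPM in old, and at 3.49 to 23.2 CPM (median 5.90) in old repopulated libraries. Ranges overlapped, and the 3 highest old repopulated values were again those of replicates 6, 7 and 8, at 12.5, 17.1 and 23.2 CPM. In old repopulated versus young Il12b had a log2 fold change of 0.27 ± 0.39 (SE), adjusted p = 0.687 by edgeR.

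Il15 encodes a cytokine that sustains T and NK cells. It was at 7.15 to 12.2 CPM (median 9.31) in young, at 9.59, 8.00 and 8.74 CPM in young repopulated, at 10.5, 6.51, 6.34, 9.04 and 9.73 CPM in old, and at 3.98 to 9.20 CPM (median 5.78) in old repopulated libraries. Of the 8 old repopulated libraries 6 were below every young one. Il15 fell by 0.64 ± 0.18 (SE) on the log2 scale in old repopulated versus young, 1.56-fold, adjusted p = 0.0179 by edgeR. The log2 fold change was -0.47 ± 0.19 in old repopulated versus old, adjusted p = 0.35, and in young repopulated versus young -0.11 ± 0.24, adjusted p = 0.89.

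Il16, whose product attracts CD4-bearing cells, was at 53.8 to 99.5 CPM (median 91.3) in young and at 89.6, 81.0 and 93.1 CPM in young repopulated libraries. It was at 90.3, 62.7, 41.4, 71.7 and 61.4 CPM in old and at 24.5 to 114 CPM (median 57.7) in old repopulated libraries. The lowest old repopulated values, 30.6, 40.1 and 24.5 CPM, were those of replicates 6, 7 and 8, and the highest was that of replicate 1. Its log2 fold change in old repopulated versus young was -0.49 ± 0.25 (SE), adjusted p = 0.184 by edgeR.

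The old repopulated libraries of the 2 runs of numbers differed in 5 of 10 members without overlap, where 22.1% of all genes did so, 12.8% higher and 9.32% lower in numbers 12 to 24. Il1b, Il1rn, Il10 and Il12b were higher, and Il16 lower, in each of replicates 6 to 8 than in any of replicates 1 to 5. In old repopulated versus young, 0 of 10 members were called by edgeR within numbers 1 to 11, where 0.0107% of all genes were called. Within numbers 12 to 24, 8 of 10 were called, where 41.1% of all genes were called. There Il10 (log2 fold change 4.25 ± 0.61, SE), Il1rn (2.46 ± 0.36), Il1b (0.85 ± 0.24) and Il12b (0.82 ± 0.27) rose. Il16 (-1.51 ± 0.20), Il1a (-0.91 ± 0.33), Il15 (-0.78 ± 0.17) and Il18 (-0.73 ± 0.13) fell.

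**Figure D3:**
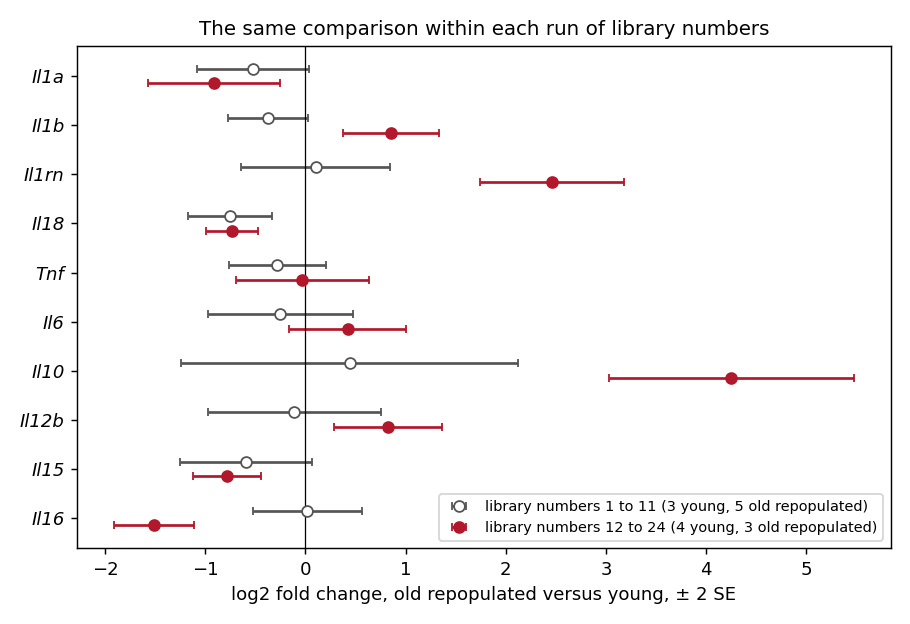
Log2 fold change of each member in old repopulated versus young microglia with 2 SE on either side, fitted within library numbers 1 to 11 (open) and 12 to 24 (filled). The pairs for Il18 and Il15 lie close together, while Il1rn is at 0.10 and 2.46, Il10 at 0.44 and 4.25 and Il16 at 0.02 and -1.51.

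The difference between the runs was itself tested in 1 model of all 23 libraries. It was called for Il1rn (2.35 ± 0.55, SE, on the log2 scale, adjusted p = 0.0413 by edgeR) and for Il16 (-1.54 ± 0.36, adjusted p = 0.0413), which are 2 of 10 members, where 1.39% of all genes were called. For Il10 it was 3.80 ± 1.0 (adjusted p = 0.0575) and for Il1b 1.21 ± 0.32 (adjusted p = 0.0591). For Il18 it was 0.02 ± 0.25 and for Il15 -0.19 ± 0.37. Il18 was -0.75 ± 0.21 within numbers 1 to 11 (adjusted p = 0.359) and Il15 -0.59 ± 0.33 (adjusted p = 0.532), so each kept its size there without passing the threshold.

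The other contrasts were also fitted within numbers 12 to 24. In old versus young Il12b (log2 fold change -0.95 ± 0.28, SE) and Il16 (-0.63 ± 0.19) fell, 2 of 10 members where 15.7% of all genes were called. Between old repopulated and old libraries Il10 (2.69 ± 0.63), Il12b (1.77 ± 0.30) and Il1rn (1.51 ± 0.39) rose and Il16 (-0.88 ± 0.20), Il18 (-0.85 ± 0.14) and Il15 (-0.65 ± 0.18) fell, 6 of 10 where 12.7% of all genes were called. Old repopulated versus young repopulated had 7 of 10 members called where 36.3% of all genes were called. In young repopulated versus young 0 members were called where 9.3% of all genes were called. The interaction was called for Il1rn (2.06 ± 0.53) and Il12b (2.00 ± 0.41), 2 of 10 where 8.87% of all genes were called. Within numbers 1 to 11, edgeR called 0 members in old versus young (0.00533% of all genes) and in old repopulated versus old (0% of all genes). The difference between the runs, tested by edgeR in these 2 contrasts, was called for 0 members and 0% of all genes. At an unadjusted p under 0.05 it held 1 member (Il12b) and 1770 genes in old versus young, and 5 members (Il1b, Il1rn, Il10, Il12b and Il16) and 1356 genes in old repopulated versus old.

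Some markers of other myeloid cells rose in old repopulated versus young microglia. Of 7 monocyte markers, 5 rose in old repopulated versus young by edgeR, among them Ccr2 (log2 fold change 3.85 ± 0.82, SE), and no marker of the list was at 0 in any library. Among all genes 9.29% were called higher there. The summed level of the 7 was 7280, 3970 and 7270 CPM in old repopulated replicates 6, 7 and 8 and 354 to 2990 CPM in replicates 1 to 5. It was 271 to 1630 CPM in young, 611 to 1080 CPM in young repopulated and 487 to 4340 CPM in old libraries. Much of that sum was Fn1, at 899 ± 407 CPM in young (SD, n = 7) and 2350 ± 2070 CPM in old repopulated libraries (SD, n = 8), whose log2 fold change of 1.38 ± 0.52 was not called (adjusted p = 0.0735 by edgeR). The other 6 monocyte markers summed to 2820, 788 and 1100 CPM in replicates 6, 7 and 8 and to 87.5 to 1270 CPM in replicates 1 to 5, so that these ranges overlapped. In young libraries the 6 summed to 15.6 to 233 CPM, in young repopulated to 75.4 to 259 CPM and in old to 121 to 2130 CPM. Of 7 markers of border-associated macrophages 5 rose in the same contrast. Cd163 was lower, at a mean of 13.4 CPM in young and 8.04 CPM in old repopulated libraries. The 7 summed to 1230, 665 and 1190 CPM in replicates 6, 7 and 8 and to 70.3 to 810 CPM in replicates 1 to 5. Young libraries had 58.2 to 223 CPM, young repopulated 295 to 411 CPM and old 182 to 878 CPM of these markers, none of which was at 0 in any library.

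Microglial markers went the other way. Of 11, 4 fell in old repopulated versus young, where 5.92% of all genes were called lower. The sum of the 11 was 11700, 15500 and 10900 CPM in old repopulated replicates 6, 7 and 8, below the 16200 to 30600 CPM of replicates 1 to 5. Old replicate 3, the lowest library for Il1a and Tnf, had 11700 CPM of microglial and 4340 CPM of monocyte markers. Of 10 neutrophil markers 5 rose in the same contrast, where 9.29% of all genes were called higher. Among the 10, Ly6g was at 0 in at least 1 library of each group but old. The 10 summed to 487 to 645 CPM in young and 547 to 653 CPM in young repopulated libraries. Their sum was 437 to 674 CPM in old and 272 to 699 CPM in old repopulated libraries. In old repopulated replicates 6, 7 and 8 it was 534, 379 and 272 CPM, and in replicates 1 to 5 it was 321 to 699 CPM. Most of that sum was Csf3r, at 505 ± 45.9 CPM in young (SD, n = 7) and 332 ± 155 CPM in old repopulated libraries (SD, n = 8), which was not called. The other 9 summed to 10.8 to 84.3 CPM in young, 65.3 to 155 CPM in young repopulated, 87.7 to 213 CPM in old and 67.2 to 312 CPM in old repopulated libraries. Mmp8 (3.04 ± 0.55, SE, on the log2 scale) and Retnlg (2.28 ± 0.53) were among the 5 that rose.

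Of 5 dendritic cell markers, Cd209a (log2 fold change 4.92 ± 0.73, SE) and Flt3 (3.28 ± 0.60) rose in old repopulated versus young by edgeR, and the same 2 rose in old versus young. Of all genes 9.29% were called higher in the first contrast, and 2.83% were called in either direction in the second. Xcr1 was lower, at a mean of 0.881 CPM in young and 0.352 CPM in old repopulated libraries. Zbtb46 was at 2.85 and 3.01 CPM in these groups. The 5 summed to 38.6, 32.6 and 35.3 CPM in old repopulated replicates 6, 7 and 8 and to 7.15 to 35.0 CPM in replicates 1 to 5. They summed to 4.44 to 8.75 CPM in young, 11.9 to 25.9 CPM in young repopulated and 9.02 to 61.7 CPM in old libraries. Cd209a and Clec9a were at 0 in at least 1 young library, and Xcr1 in at least 1 library of each repopulated group. The part of monocytes, border-associated macrophages, neutrophils and dendritic cells in the changes of Il1b, Il1rn, Il10, Il12b, Il15, Il16 and Il18 was not tested.

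Genes of the dissociation and immediate early response, a list of 19 with Fos, Jun and Egr1, had 0 genes called by edgeR in any of the 6 contrasts. Of all genes, 15.2% were called in old repopulated versus young, and 0% in old repopulated versus young repopulated and in the interaction. In old repopulated versus young 5 of the 19 were higher and 14 lower (median log2 fold change -0.22, beside -0.02 over all genes). In old repopulated versus old 4 were higher and 15 lower (median -0.17, beside 0). Their sum was 10000 to 15000 CPM in young, 9970 to 14300 CPM in young repopulated, 9280 to 16300 CPM in old and 7320 to 19900 CPM in old repopulated libraries. The lowest 3 sums were those of old repopulated replicates 8, 2 and 6, at 7320, 7840 and 8230 CPM. The part of this response in the levels of Il1a, Il1b, Tnf and Il6 was not tested.

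Pairs of members were compared across libraries after the mean of each group was subtracted from the log2 CPM values. Of 45 pairs, 10 had an adjusted p under 0.05 in a two-sided permutation test of Pearson's r, with Benjamini-Hochberg adjustment over the 45. Il1a and Tnf had r = 0.85 and Spearman's rho = 0.75 (n = 23, permutation p = 6e-05 and 0.00022, adjusted p = 0.00124 and 0.0033), and r = 0.81 without the 2 libraries farthest from the median of Il1a. The size of r was similar within numbers 1 to 11 (r = 0.85) and 12 to 24 (r = 0.88). With the fewer libraries of a single run, no pair had an adjusted permutation p under 0.05. When the mean of each group within each run was subtracted, r was 0.87 with an adjusted permutation p of 0.0054.

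Il1b, Il1rn and Il10 varied together and opposite to Il16, but less so once the runs were taken into account. Il1b with Il1rn had r = 0.86 (rho = 0.85, adjusted permutation p = 0.00124 and 0.00112) and Il1rn with Il16 had r = -0.86 (rho = -0.85, adjusted permutation p = 0.00124 and 0.0009). With the mean of each group and run subtracted these were 0.64 (adjusted permutation p = 0.143) and -0.68 (adjusted permutation p = 0.102). Of the 10 pairs, only Il1a with Tnf then kept an adjusted p under 0.05. Members of a pair share the libraries and their depth.

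**Figure D4:**
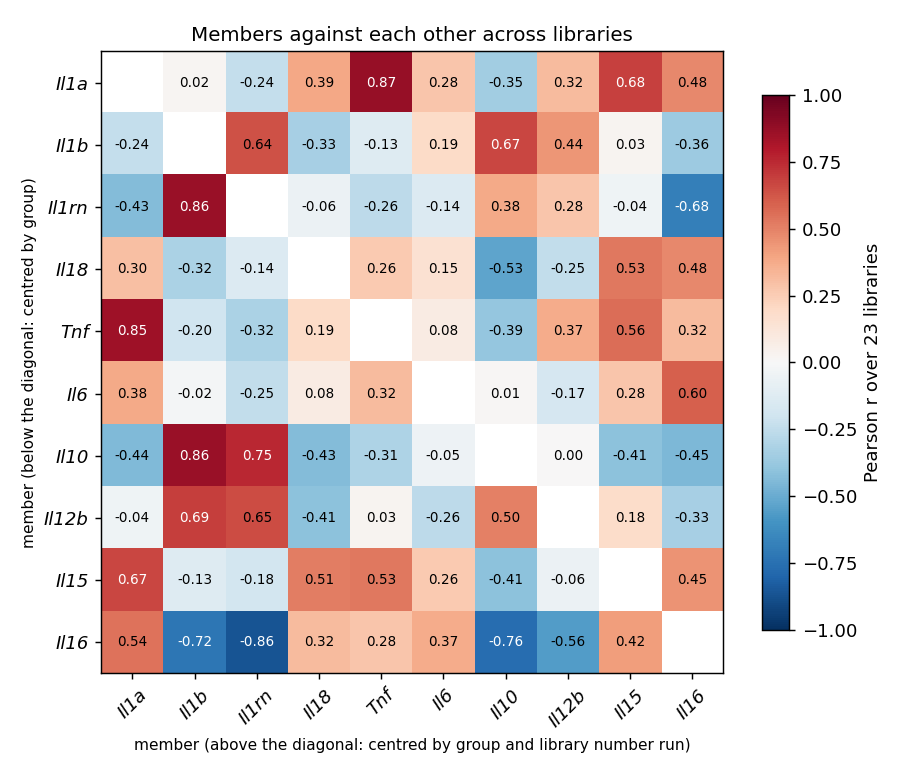
Pearson's r between members over 23 libraries, on log2 CPM. Below the diagonal the group means were subtracted, and above it the means of each group within each run of library numbers. Il1a with Tnf is at 0.85 and 0.87, while Il1b with Il1rn goes from 0.86 to 0.64.

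**Figure D5:**
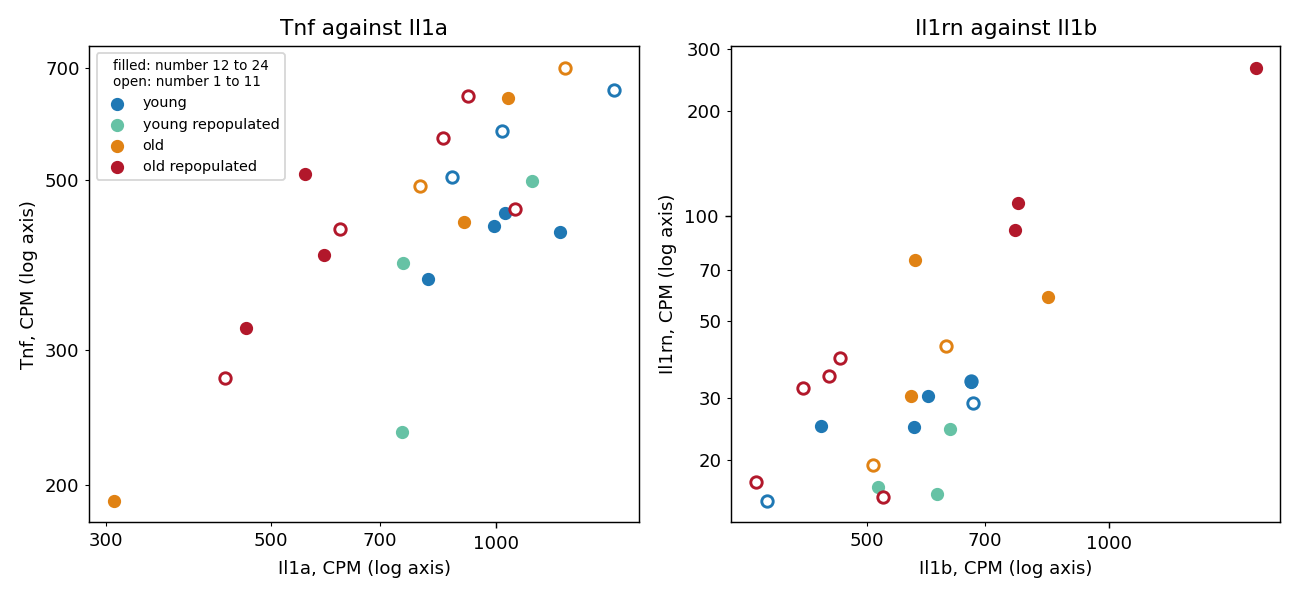
Tnf against Il1a, and Il1rn against Il1b, as TMM-scaled CPM on log axes, with 1 point per library. Tnf follows Il1a in open (numbers 1 to 11) and filled (12 to 24) points alike, and the 3 filled old repopulated points stand at the top of the Il1rn plot, at 91.0 to 266 CPM.

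The genes most like each member were taken as the 2 with the highest r on the same group-centred values among 9636 genes, as a description over 23 libraries that share depth and preparation. For Il1a they were Nfkbiz (r = 0.96), an atypical IκB protein, and Gpr84 (r = 0.93), a fatty acid receptor of myeloid cells. For Tnf they were Nptxr (r = 0.86) and Nfkbiz (r = 0.85), and for Il1b Nfkbie (r = 0.88), an NF-κB inhibitor, and Rap1a (r = 0.84). For Il1rn, Prkar1a (r = 0.94) is given, and Il16 was nearest to Entpd1 (r = 0.96), the CD39 ectonucleotidase of microglia, and Rnf167 (r = 0.95). For Il18 they were the interferon-inducible Igtp (r = 0.88) and Tnfsf10 (r = 0.86), for Il10 Stx11 (r = 0.86) and Hnrnpa2b1 (r = 0.85), and for Il12b Itgb1 and Blm (each r = 0.86). Il15 was nearest to Evi2a (r = 0.84) and Arhgap29 (r = 0.83), and Il6 to Chtop (r = 0.81) and Siah2 (r = 0.77).

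Among 19 receptor and decoy genes, edgeR called 3 higher and 0 lower in old versus young, and 5 higher and 1 lower in old repopulated versus young. Of all genes 2.83% were called in the first contrast, and 9.29% higher and 5.92% lower in the second. The median log2 fold change of the list was 0.08 and 0.06 in these contrasts, beside -0.01 and -0.02 over all genes. Il1r2, the decoy receptor that captures IL-1, was at 1.45 to 10.9 CPM (median 1.97) in young, at 9.52 to 92.5 CPM (median 19.1) in old and at 3.68 to 61.6 CPM (median 26.9) in old repopulated libraries. It rose by 3.35 ± 0.78 (SE) on the log2 scale in old (adjusted p = 0.0203) and by 3.14 ± 0.73 in old repopulated versus young microglia (adjusted p = 0.00676). Il18bp, which neutralises IL-18, rose by 1.57 ± 0.43 in old versus young (adjusted p = 0.0488), and its 5 old libraries, from 14.1 CPM up, were all above the young ones, which reached 11 CPM. Among all genes 1.43% had old libraries all above the young ones. The young repopulated (5.51 to 38.1 CPM) and old repopulated libraries (7.52 to 42.4 CPM) overlapped with the young ones for Il18bp. The signalling receptor gene Il1r1 was low, at 3.43 ± 0.955 CPM (SD, n = 7) in young and 3.79 ± 2.24 CPM (SD, n = 8) in old repopulated libraries.

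The shared cytokine receptor chain Il2rg, which IL-15 uses, rose by 0.80 ± 0.21 in old and by 0.76 ± 0.19 in old repopulated versus young on the log2 scale. Il2rb, the second chain of that receptor, had 0 counts in all 7 young libraries. It averaged 0.181 CPM in old repopulated libraries, at least 2.64-fold higher than a floor of 3 counts per library, but 1 library held 0.956 CPM and the other 7 at most 0.189 CPM. The 1 receptor gene called lower, Il6st, which encodes the gp130 chain and is named here after its value was seen, fell by 0.71 ± 0.19 in old repopulated versus young. In TPM the receptors of TNF were well expressed in young libraries, with Tnfrsf1a at 166 ± 8.25 and Tnfrsf1b at 139 ± 7.65 (SD, n = 7), as were Il10ra (326 ± 41.8 TPM) and Il6ra (97.3 ± 13.7 TPM). Il15ra was at 24.6 ± 14.9 TPM. None of these 5 receptor genes was called in a contrast. Monocyte markers rose in the same contrasts as Il1r2 and Il2rg, 4 of 7 in old and 5 of 7 in old repopulated versus young, and their part in these changes was not tested.

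Of 10 genes for maturation and release, edgeR called 1 lower in young repopulated versus young and 2 lower in old repopulated versus young, with none higher. Of all genes 1.34% and 15.2% were called in these contrasts, 5.92% lower in the second, so that 2 of 10 is near the share over all genes in either direction. The median log2 fold change of the list was -0.12 and -0.08 in these contrasts, beside -0.04 and -0.02 over all genes. Pycard, the ASC adaptor that assembles inflammasomes, was at 109 to 151 CPM (median 126) in young, at 85.6, 87.6 and 94.5 CPM in young repopulated, and at 66.8 to 103 CPM (median 93.2) in old repopulated libraries. All repopulated libraries of either age lay below all young ones. Old libraries, at 98.6 to 112 CPM (median 109), reached below the young range and overlapped with its lower end. Among all genes, 1.26% had old repopulated libraries all below the young ones and 6.11% had young repopulated libraries all below them. Pycard fell by 0.51 ± 0.11 (SE) in young repopulated (adjusted p = 0.0239) and by 0.48 ± 0.08 in old repopulated versus young microglia (adjusted p = 0.000912). Casp4, the inflammatory caspase that senses lipopolysaccharide inside the cell, fell by 0.83 ± 0.17 in old repopulated versus young (adjusted p = 0.0034). Casp1 was at 53.8 ± 8.56 TPM, Nlrp3 at 250 ± 56.3 TPM and Adam17, the TNF sheddase, at 126 ± 19.9 TPM in young libraries (SD, n = 7), and none of these 3 was called.

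Of 21 signalling genes, 2 were called higher in old versus young and 3 in old repopulated versus young, with none lower. Of all genes 2.83% and 15.2% were called in these contrasts, so 3 of 21 in the second is near the share over all genes. The list's median log2 fold changes were 0.25 and 0.03, beside -0.01 and -0.02 over all genes. Stat4, which transmits the IL-12 signal, rose by 3.04 ± 0.75 in old and 2.96 ± 0.71 in old repopulated versus young, from 0.891 ± 0.501 CPM (SD, n = 7) in young libraries. Ikbkb, the kinase that releases NF-κB, rose by 0.37 ± 0.10 in old versus young. Irak3, a brake on IL-1 receptor signalling, rose by 1.16 ± 0.29 and Irak4 by 0.39 ± 0.11 in old repopulated versus young. The median log2 fold change of the 7 monocyte markers was 3.72 in old and 3.71 in old repopulated versus young, with 4 and 5 of them called higher, and their part in the changes of Stat4 and Irak3 was not tested.

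Of 16 NF-κB factors and feedback genes, 1 was called higher and 4 lower in old repopulated versus young, and 1 lower in young repopulated versus young. Of all genes 9.29% were called higher and 5.92% lower in the first contrast and 1.34% in either direction in the second. Their median log2 fold changes were -0.32 and -0.40, beside -0.02 and -0.04 over all genes. Icam1, an adhesion molecule induced by TNF, fell by 0.61 ± 0.20, the inhibitor gene Nfkbib by 0.47 ± 0.12 and the p65 gene Rela by 0.38 ± 0.11 in old repopulated versus young. Nfkbib fell by 0.67 ± 0.17 in young repopulated versus young. Of 28 other cytokine genes, 9 passed the filter on low counts and 1 was called: Csf1, a ligand of the receptor that PLX5622 blocks, fell by 1.02 ± 0.35 in old repopulated versus young (adjusted p = 0.0485).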

How the data were processed

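RNA was sequenced from microglia of 4 groups, and nothing else was measured here. The labels' protocols state a TruSeq stranded mRNA kit, 2.4 to 147 ng of input RNA and single 50 nt reads. The protocols describe both CD11b magnetic selection with culture and sorted cells, and the RNA text names the sorted cells. FastQC 0.11.5, STAR, RSEM, limma and build GRCm38 are named in the submitters' processing notes (strand use and other versions: not given in the sources used here). Deposited by the authors were, per the file headers, RSEM tables of 53090 genes with expected counts, TPM and effective lengths. Of the deposited expected counts, 87.26% were whole within 1e-06, and all were rounded before testing. Deposited TPM served to compare levels between genes, to describe their order in each group and for the percentage of Il1rn. No test used TPM, and RSEM shares reads among similar genes.

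In R 4.3.3, edgeR 4.0.16 kept 18720 genes by filterByExpr and scaled libraries by TMM. One coefficient per group was fitted over 23 libraries (glmQLFit, glmQLFTest), with Benjamini-Hochberg adjustment over all genes kept. The scripts were tested on simulated data. SE is the fold change divided by the root of the F statistic, and log2 CPM used a prior count of 2. Relations were tested with 100000 permutations within groups in numpy 2.4.6, with ranks from scipy 1.17.1.

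The members, gene lists and tests were chosen with earlier results of these data known. Named were all members, genes of each list called in a contrast (at most the 3 largest changes), 12 partner genes for their level, markers that move with a result, and the 2 genes most like each member, of which 1 is not reported here. Symbols of 3 list genes stood on more than 1 row, and the row with most counts was used. Alternatives were DESeq2 1.42.0, limma voom 3.58.1 with sample weights, RLE factors, a filter at 5 CPM or none, a fit of only the groups compared, the run of library numbers as a term, each run alone and leaving out each library. The test of a difference between runs, the centring by group and run, and the percentage of Il1rn were chosen after seeing the data.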

Additional observations from a re-analysis of the deposited data

Results flagged for a closer look

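Within groups of 5, 7 and 8 libraries, 102 combinations of gene and group were checked for a highest or lowest value set apart from the others by Dixon's criterion, and 9 were set apart. All 9 were highest values. The criterion sets apart about 1 in 20 where values are independent and normally distributed. Here CPM were not logged, genes share libraries and the partner genes were chosen from these data. The 9 therefore cannot be set against that rate. The members accounted for 3 of their 30. All 3 were old repopulated replicate 6: Il1b at 1520 CPM (next library 770 CPM), Il1rn at 266 CPM (next 109 CPM) and Il10 at 32.7 CPM (next 6.55 CPM). That library also had the highest Tnfrsf1a of its group, at 221 CPM (next 191 CPM).

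Young replicate 3, the library with the fewest genes that had a count (16399), was highest of its group for Il1r2 at 10.9 CPM (next 4.02 CPM), Nfkbib at 80.9 CPM (next 47.8 CPM) and Casp1 at 67.6 CPM (next 50.0 CPM). Il2rb was highest in old replicate 2 at 0.631 CPM (next 0.133 CPM) and in old repopulated replicate 3 at 0.956 CPM (next 0.189 CPM). Partner and pathway genes entered this check because they were called or are named for their level.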

How the results depend on the processing

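The signs of the 4 called changes in old repopulated versus young (Il10, Il1rn, Il18, Il15) held under each alternative in which the gene was fitted. Il10 did not pass the filter at 5 CPM and has no value there. The threshold was missed within library numbers 1 to 11 by Il10 (0.44, adjusted p = 0.898), Il1rn (0.10), Il18 (-0.75) and Il15 (-0.59), and by Il1rn also with only the groups compared (1.49, adjusted p = 0.0649) and with no filter (1.45, adjusted p = 0.0504). With 1 library left out, log2 fold changes ranged from 1.59 to 3.09 for Il10 (1 of 23 fits missed the threshold), 0.82 to 1.65 for Il1rn (11 of 23 missed it), -0.77 to -0.65 for Il18 and -0.75 to -0.57 for Il15 (0 of 23 each). The number of members called in old repopulated versus young then ranged from 2 (without old repopulated replicate 6) to 6 (without old repopulated replicate 1), where 1955 and 4772 of all genes were called, beside 2847, and in old repopulated versus old from 0 to 1 (Il18, without old replicate 2 or old repopulated replicate 1). It stayed at 0 in the other contrasts.

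Members called in old repopulated versus young numbered 0 within numbers 1 to 11 (0.0107% of all genes) and 8 within 12 to 24 (41.1%), beside 4 (15.2%). On all libraries DESeq2 called 5 members in that contrast (19.2% of all genes) and voom 6 (35.5%). In old versus young 2 were called within 12 to 24 (15.7% of all genes). In old repopulated versus old 1 was called by DESeq2 (2.08% of all genes), 1 by voom (2.21%) and 6 within 12 to 24 (12.7%). In young repopulated versus young edgeR called 1 with only the groups compared (Il18, adjusted p = 0.0355), where 7.5% of all genes were called. There voom called 2 (Il18 and Il6), where 13.8% of all genes were called. In old repopulated versus young repopulated voom called 3 (17% of all genes) and the run term 1 (Il1rn, 4.52% of all genes). Numbers 12 to 24 gave 7 in that contrast, where 36.3% of all genes were called. The interaction gave 2 within 12 to 24 (8.87% of all genes). Called pairs of members numbered 0 within each run and 1 after centring by group and run, beside 10. Fits within a run have fewer libraries, and other causes were not tested.

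In old repopulated versus young the count of genes called over the whole table moved too: edgeR called 2847, the fits within runs 2 and 7068, voom 6646 and the fit with the run as a term 4585. No paired analysis was possible because the titles carry numbers from 1 to 24 that no 2 libraries share. Depth limited mainly Il10, with 11 expected counts in its lowest library, and Il2rb. Intervals cover the spread between libraries.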
